A study of Mus musculus with 12 samples.

Results

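Fgf15 and 6 other genes of ileal bile acid handling, namely Nr1h4, Nr0b2, Slc10a2, Fabp6, Slc51a and Slc51b, were followed through sorted crypt cells of the mouse small intestine. The 7 genes were taken by symbol from a count table of 55414 genes, and the set was chosen from values of these same libraries, so that the levels and fold changes of its members are given as a description, with no p-value. Members past the threshold of the fit over all genes are only counted, beside the share of all genes past it, and nothing is read from these counts. Under alternative fits they are counted without that share, and nothing is read from those counts either. The table holds bulk RNA-seq of 12 libraries in 4 groups of 3, from C57BL/6J mice. The groups are WT Paneth cells, WT non-Paneth cells, GRKO Paneth cells and GRKO non-Paneth cells. No treatment is named for any of them.

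GRKO cells came from mice labelled GRvillinKO. The name joins the glucocorticoid receptor (GR, gene Nr3c1) to villin, a gene of intestinal epithelial cells whose promoter is widely used to drive Cre there. The construct itself was not described. Paneth cells were sorted from dissociated crypts as CD24+, cKIT+ cells of medium to high side scatter that were CD31-, CD45- and TER119-. How the non-Paneth cells were gated was not stated, and the labels do not say that the 3 libraries of a group came from 3 animals, so that errors and p-values measure the spread between these libraries only. The genotype was read from the sample titles, because the separate genotype field calls every non-Paneth sample GRKO and every Paneth sample WT. The titles matched the targeted gene. Nr3c1 had 148 ± 12.7 CPM (counts scaled to a library total of 1000000, mean ± SD, n = 3) in WT and 28.4 ± 8.35 CPM in GRKO non-Paneth cells, and 35.9 ± 4.47 CPM in WT and 7.38 ± 4.12 CPM in GRKO Paneth cells. Its log2 fold change was -2.67 in non-Paneth cells (adjusted p = 6.67e-05, edgeR's quasi-likelihood test) and -2.31 in Paneth cells (adjusted p = 0.0331).

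Bile acids are made in the liver, released into the gut with a meal and taken back up in the last stretch of the small intestine. The mature enterocyte of the ileum carries them in through SLC10A2 on its apical side, holds them on FABP6 in the cytosol and passes them out to the portal blood through the SLC51A and SLC51B pair on its basal side. Inside the cell they bind the nuclear receptor FXR, the product of Nr1h4, which pairs with a retinoid X receptor and turns on Fgf15, Nr0b2 and the genes of binding and export. FGF15 is a hormone that travels to the liver, where it is received by FGFR4 with its partner beta-Klotho and lowers bile acid synthesis. NR0B2, also called SHP, is a repressor without a DNA-binding domain that acts within the cell.

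The libraries held 11126297 to 15910292 counts, and 13057 genes passed the filter on low counts. Paneth libraries were dominated by few genes, with 6 Paneth markers (Lyz1, Mmp7, Defa24, Defa30, Ang4 and Mptx2) summing to 317967 to 396133 CPM, against 350 to 1354 CPM in non-Paneth libraries. Levels below are CPM of all counts, while fold changes come from the fit after TMM scaling, which takes out such differences in composition, so that the 2 scales do not give the same ratio between sorts. WT replicate 2 held Xist, the transcript of the inactive X chromosome, at 257 CPM in its non-Paneth and 127 CPM in its Paneth library, against at most 0.52 CPM in the other 10 libraries. In the non-Paneth sort this library was the highest of its group for all 7 members.

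In WT non-Paneth cells the genes could be ordered by level per length, in CPM per kb of exon. Fabp6, the binding protein, came first with 1673 ± 837 CPM per kb (SD, n = 3), followed by Slc51b with 103 ± 4.27 and Slc51a with 70.0 ± 17.8 CPM per kb, the subunits of the exporter. Nr1h4 and the uptake carrier Slc10a2 both stood at 10.4 CPM per kb, with SDs of 0.996 and 3.17. Fgf15 had 5.80 ± 6.05 and Nr0b2 0.614 ± 0.324 CPM per kb. The ranges of Nr1h4 and Slc10a2 overlapped, as did those of Slc10a2 and Fgf15, and every other pair of neighbours in this order was separated in all 3 libraries.

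**Figure D1:**
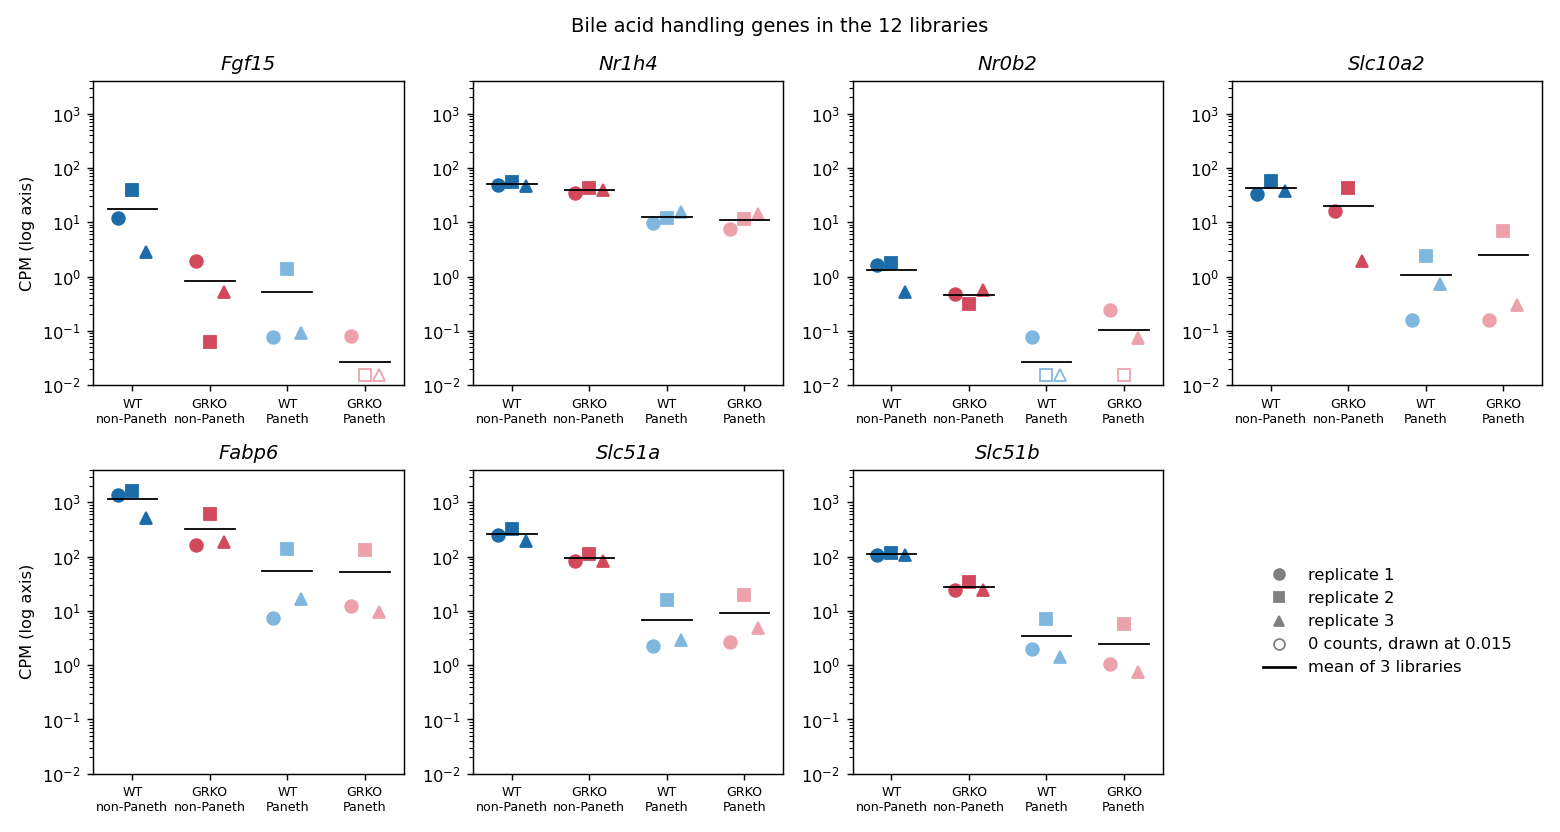
CPM (log axis) of the 7 genes in each of the 12 libraries, grouped by genotype and sort, with 1 symbol per replicate number, open symbols for 0 counts and a line at the mean of 3 libraries. Fgf15 spans 2.86 to 38.5 CPM in WT non-Paneth cells and stays at or below 1.90 CPM in all 9 other libraries, while Slc51b is tight at 106 to 115 CPM in WT non-Paneth cells and at 24.6 to 34.8 CPM in their GRKO counterparts.

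Fgf15 (ENSMUSG00000031073, chr7:144450268-144454690, plus strand, GRCm39 with GENCODE vM39 as for every gene position here) was seen mainly in WT non-Paneth cells. It had 11.9, 38.5 and 2.86 CPM in replicates 1, 2 and 3, which are 153, 553 and 44 counts. In GRKO non-Paneth cells it had 1.90, 0.0629 and 0.509 CPM, or 28, 1 and 8 counts. The genotypes did not overlap, but both groups were uneven. Replicate 2 gave 73.7% of the 750 WT counts, and replicate 1 gave 75.7% of the 37 GRKO counts.

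The log2 fold change of Fgf15 in GRKO over WT non-Paneth cells was -4.72 (SE 1.22), a fall of 26.4-fold and the 3rd lowest value among the 13057 genes. Without WT replicate 2 it was -3.48, and without GRKO replicate 1, the highest of its group, -6.26. Its call at an adjusted p of 0.05 was lost without GRKO replicate 2 or 3, and in a fit on the 2 non-Paneth groups alone. In Paneth cells Fgf15 was at the edge of detection, with 1, 17 and 1 counts in the WT and 1, 0 and 0 counts in the GRKO libraries. The 17 counts lay in WT replicate 2, the same number as the highest non-Paneth library. No fold change between the genotypes is given at these counts. The WT Paneth over WT non-Paneth log2 fold change was -4.34 (SE 1.32), and it was -7.02 without WT Paneth replicate 2 and -2.95 without WT non-Paneth replicate 2. An antisense gene, Gm26793, shares 24.9% of the exonic bases of Fgf15 but had 4 counts in all WT and 0 in all GRKO non-Paneth libraries.

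Nr1h4 (ENSMUSG00000047638, chr10:89289742-89369497, minus strand) encodes FXR, the bile acid sensor. It had 49.4, 55.8 and 46.4 CPM in WT non-Paneth cells and 34.8, 43.2 and 40.1 CPM in GRKO non-Paneth cells. Each GRKO library lay below each WT library, by a small margin. GRKO over WT, the log2 fold change was -0.65 (SE 0.183), the smallest among the 6 members that could be fitted, and it shrank to -0.36 when counts were scaled by library totals only, where the call at an adjusted p of 0.05 was lost. Nr1h4 was the member best kept in Paneth cells. It had 9.80, 11.8 and 15.5 CPM in the WT and 7.43, 11.5 and 14.1 CPM in the GRKO Paneth libraries, which overlapped, and its log2 fold change between genotypes there was -0.20 (SE 0.201).

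Nr0b2 (ENSMUSG00000037583, chr4:133280678-133283847, plus strand), the repressor that FXR induces, was too low to pass the filter. It had 21, 26 and 8 counts in WT and 7, 5 and 9 counts in GRKO non-Paneth cells, or 1.32 ± 0.698 and 0.454 ± 0.131 CPM. The ranges overlapped through WT replicate 3. Paneth libraries held 1, 0 and 0 counts in WT and 3, 0 and 1 counts in GRKO cells. A difference between genotypes in Paneth cells was not detectable at this depth.

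Slc10a2 (ENSMUSG00000023073, chr8:5133219-5155351, minus strand) is the apical uptake carrier. It had 33.7, 58.1 and 37.4 CPM in WT non-Paneth cells and 15.8, 42.8 and 1.91 CPM in GRKO non-Paneth cells. The genotypes overlapped, because GRKO replicate 2 lay above WT replicates 1 and 3 and held 72.2% of the counts of its group. A log2 fold change of -1.39 had an SE of 1.07 and went from -2.63 without GRKO replicate 2 to -0.90 without GRKO replicate 3. In Paneth cells 0.157, 2.35 and 0.719 CPM were found in WT and 0.160, 6.87 and 0.298 CPM in GRKO libraries. Replicate 2 was the highest in both genotypes.

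Fabp6 (ENSMUSG00000020405, chr11:43486872-43492469, minus strand), the cytosolic binding protein of the ileum, was the most abundant member. It had 1382, 1626 and 510 CPM in WT and 163, 606 and 189 CPM in GRKO non-Paneth cells. GRKO replicate 2 exceeded WT replicate 3 on this scale, and after TMM scaling all GRKO libraries lay below all WT libraries. Its log2 fold change was -2.18 (SE 1.35) and lay between -3.08 and -1.88 over all alternative fits. Paneth libraries had 7.37, 136 and 16.8 CPM in WT and 12.2, 132 and 9.67 CPM in GRKO cells. Replicate 2 held 85.7% of the WT and 86.7% of the GRKO counts, so that the mean of 53.5 or 51.2 CPM describes no single library.

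Slc51a (ENSMUSG00000035699, chr16:32293322-32306842, minus strand) encodes the larger subunit of the basal exporter, OST alpha. It had 251, 324 and 194 CPM in WT and 84.5, 112 and 84.9 CPM in GRKO non-Paneth cells, with no overlap. Here the log2 fold change was -1.74 (SE 0.747) and lay between -1.97 and -1.45 over all alternative fits. The antisense gene Pcyt1a shares 25.2% of the exonic bases of Slc51a and was itself at 208 and 118 CPM in WT and GRKO non-Paneth cells. The libraries were stranded, but the strand setting of the counting was not stated. What the overlap with Pcyt1a added to or took from the Slc51a counts was not tested.

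Slc51b (ENSMUSG00000053862, chr9:65319995-65330597, minus strand), the OST beta subunit, was the steadiest member in WT non-Paneth cells. It had 109, 115 and 106 CPM in WT and 24.6, 34.8 and 24.7 CPM in GRKO non-Paneth cells. The groups stood far apart relative to their spread, and the log2 fold change was -2.26 (SE 0.578), between -2.50 and -1.97 over all alternative fits. Its call at an adjusted p of 0.05 was lost without GRKO replicate 1. The subunits, which work as a heterodimer, did not fall in exact step. Slc51a per kb was 0.676 ± 0.144 of Slc51b per kb in WT and 0.984 ± 0.0347 in GRKO non-Paneth cells, with no overlap between the libraries. The exonic bases that Slc51a shares with Pcyt1a were not set aside in this ratio.

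In Paneth cells both exporter subunits were low. Slc51a had 2.27, 15.6 and 2.97 CPM in WT and 2.64, 19.5 and 4.91 CPM in GRKO Paneth libraries. Slc51b had 1.96, 6.98 and 1.44 CPM in WT and 1.04, 5.73 and 0.744 CPM in GRKO Paneth libraries. Replicate 2 was again the highest in each genotype, and the genotypes overlapped.

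Counted over the set, 6 of the 7 members could be fitted. In GRKO against WT non-Paneth cells 3 of the 6 (Fgf15, Nr1h4 and Slc51b) lay below an adjusted p of 0.05, all lower, where 37.3% of the 13057 genes did so in either direction and 19.8% were lower. After TMM scaling 5 of the 6 had no overlap of the genotypes with GRKO lower, as had 27.5% of all genes. With no filter on low counts all 7 members passed, and the share of all genes past the threshold in that fit is not reported here. The members were chosen on such differences. The split of all genes depended on the scaling. It was 2283 higher and 2586 lower after TMM, and 4348 higher and 1478 lower with library totals only. In WT Paneth against WT non-Paneth cells 5 of 6 members (not Fabp6) passed, all lower, beside 50.7% of all genes, or 26.7% lower. With the replicate number as a block, which joins the WT sorts of 1 number, Fabp6 passed as well. The calls of Fgf15 and Slc10a2 were lost without WT Paneth replicate 1 or 3, and without WT non-Paneth replicate 2. In GRKO Paneth against GRKO non-Paneth cells Nr1h4, Slc51a and Slc51b passed, all lower, beside 39.2% of all genes, or 21.2% lower. With 1 library left out in turn, only Nr1h4 always passed. Slc51a then passed only without GRKO Paneth replicate 2. Slc51b was lost without GRKO Paneth replicate 1 or 3, and without GRKO non-Paneth replicate 2.

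Between the genotypes in Paneth cells none of the 6 members passed by edgeR or DESeq2, beside 3.22% of all genes. With no filter on low counts Fgf15 (lower) and Slc10a2 (higher) passed, in a fit that also called more genes in all. Values there were decided by single libraries. The log2 fold change of Fabp6 was -0.30 (SE 1.33) and went from -2.37 without GRKO replicate 2 to 2.08 without WT replicate 2. Slc10a2 went from -2.19 to 2.58, Slc51a from -0.93 to 1.83 and Slc51b from -1.97 to 0.63 when the same libraries were left out. Without both of them the values were -0.00104 for Fabp6, -0.73 for Slc10a2, 0.66 for Slc51a and -0.80 for Slc51b. For the difference of the genotype effects between the sorts (Paneth minus non-Paneth, the interaction), none of the 6 members passed by edgeR or DESeq2, beside 18.7% of all genes. Slc51a and Slc51b passed once WT Paneth replicate 2, or both Paneth libraries of number 2, were left out, and Fabp6, Slc10a2, Slc51a and Slc51b passed with no filter on low counts. The log2 value of the interaction was 1.73 (SE 0.984) for Slc51b, 1.98 (SE 1.14) for Slc51a and 0.45 (SE 0.272) for Nr1h4.

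The members are enterocyte genes, and enterocyte markers moved with them. The summed level of 17 markers (among them the brush border enzymes Alpi, Sis and Anpep, the lipid carriers Apoa1, Apoa4, Apob, Fabp1 and Fabp2, and the sugar carriers Slc5a1 and Slc2a2) was 44794 to 46911 CPM in WT and 11766 to 14434 CPM in GRKO non-Paneth cells. All 17 had a negative log2 fold change, 13 of them past an adjusted p of 0.05 by edgeR's quasi-likelihood test, with a median of -2.03. The median of the 6 members was -1.96 and that of all genes 0.0221, and 19.8% of all genes were called lower. In mean CPM the GRKO over WT ratio of the markers ran from 0.220 for Fabp1 to 0.432 for Vil1, with no overlap of the genotypes for any of the 17. In bulk samples fewer cells of a type and less RNA per cell cannot be told apart.

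Paneth libraries held few enterocyte transcripts, and unequally. The summed markers were at 969, 2326 and 1043 CPM in WT and at 920, 1550 and 1262 CPM in GRKO Paneth libraries. Replicate 2, which held most of the Fabp6, Slc10a2, Slc51a and Slc51b counts of both Paneth groups, was also the highest in these markers. Per 1000 CPM of the markers it was still the highest for each of these genes in both genotypes. Fabp6 then stood at 7.6, 58.6 and 16.1 CPM in replicates 1, 2 and 3 of WT and at 13.3, 84.9 and 7.67 CPM in those of GRKO Paneth cells. The part of enterocyte transcripts in the members' Paneth values was not tested.

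**Figure D2:**
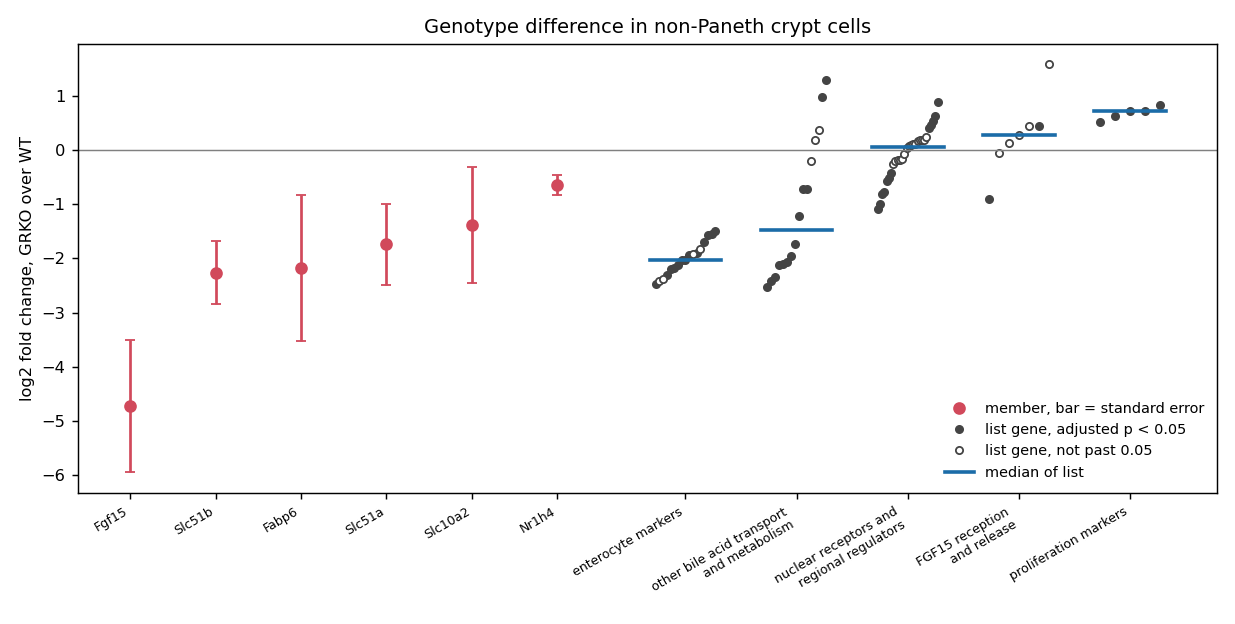
Log2 fold changes of GRKO over WT in non-Paneth cells (y axis), for the 6 members that could be fitted (red, bars are standard errors) and for 5 gene lists (black where the adjusted p is below 0.05, open where not, blue line at the median). The members other than Fgf15 and Nr1h4 lie in the range of the enterocyte markers, -2.46 to -1.50, within their standard errors, and Fgf15 lies below it at -4.72.

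Set against the enterocyte markers of the same library, most members overlapped between the genotypes. Per 1000 CPM of the 17 markers, Fabp6 stood at 26.0 ± 13.4 CPM in WT and 25.4 ± 22.6 CPM in GRKO non-Paneth cells, a ratio of 0.978. The ratio was 0.884 for Slc51b, 1.14 for Nr0b2, 1.27 for Slc51a and 1.72 for Slc10a2, and for all of these the genotypes overlapped. Nr1h4 stood at 1.11 ± 0.129 CPM in WT and 2.98 ± 0.616 CPM in GRKO cells, 2.68 times as high, with no overlap. Nr1h4 itself was lower in GRKO cells, at 50.6 and 39.3 CPM in the mean. Its ratio rose because the summed markers fell by more, from 45520 to 13395 CPM. How many of all genes rise in this way was not tested. Fgf15 was at 0.395 ± 0.414 and 0.0589 ± 0.0685 CPM, a ratio of 0.149. Its ranges of 0.0610 to 0.859 and 0.00534 to 0.136 overlapped, because WT replicate 3 lay below GRKO replicate 1.

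**Figure D3:**
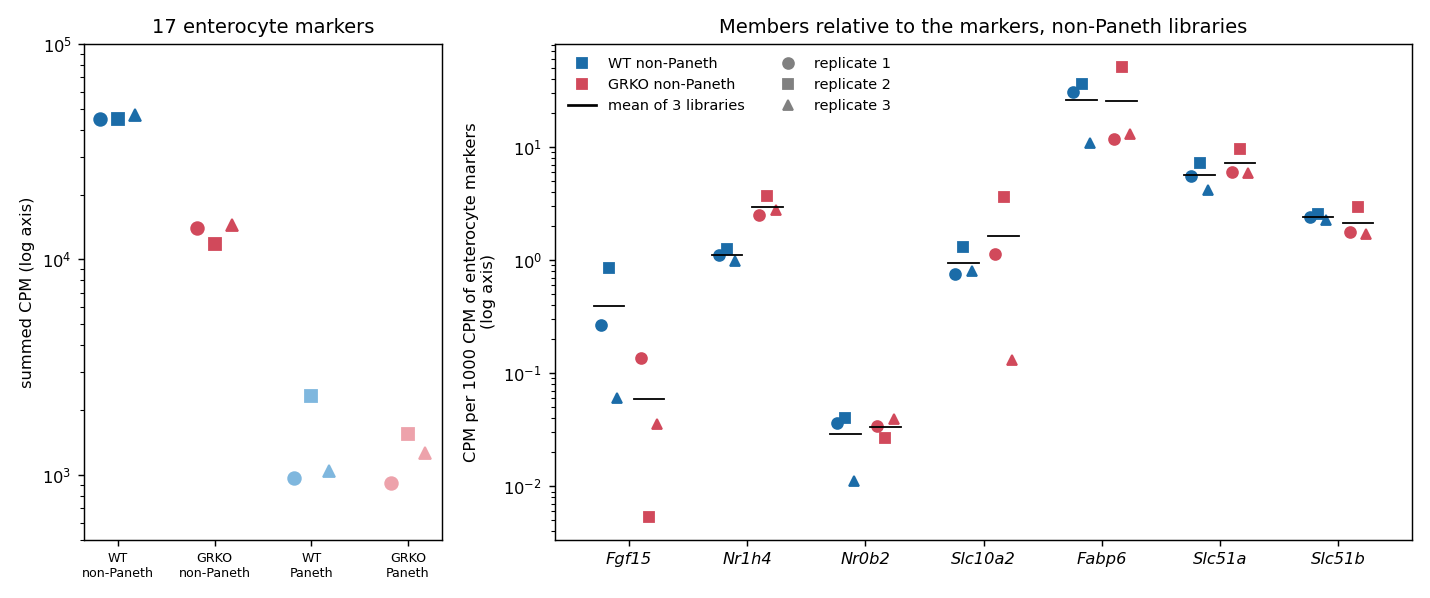
Left, summed CPM of 17 enterocyte markers in each of the 12 libraries (log axis). Right, CPM of each member per 1000 CPM of these markers in the 6 non-Paneth libraries (log axis), blue for WT and red for GRKO, with a line at the mean. Relative to the markers, Nr1h4 is higher in every GRKO library and the other 6 genes overlap between genotypes.

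Markers of other cells also differed between the non-Paneth groups, where 37.3% of all genes passed the threshold. Summed tuft cell markers (5 genes) were at 3.80 to 10.6 CPM in WT and 93.0 to 370 CPM in GRKO cells, with 4 of 5 higher past the threshold. Proliferation markers rose from a sum of 798 to 923 CPM to one of 1692 to 1769 CPM, with 5 of 5 called. Stem cell markers had 3 of 5 called, all higher, and summed to 4140 to 5713 CPM in WT and 6516 to 8552 CPM in GRKO cells. Goblet cell markers had 2 of 6 called, both lower, and 0 of 6 with library totals only, and enteroendocrine markers 1 of 5, higher. Of 5 immune markers 2 were tested, of which 0 passed by edgeR (1 at an unadjusted p below 0.05) and both by DESeq2 in opposite directions. The immune markers summed to 2500 to 2661 CPM in WT and 475 to 1791 CPM in GRKO cells, nearly all of it Cd74. Cd74 had 2587 ± 81 CPM in WT and 1320 ± 733 CPM in GRKO cells. Ptprc went the other way, at 0.195 to 0.487 CPM in WT and 0.446 to 9.11 CPM in GRKO cells. Cd3e, Cd52 and Cd79a stayed below 1 CPM. The stromal and endothelial markers summed to less than 1 CPM in every library, with Pdgfra at 0 throughout. The part of these cells in the members' values was not tested.

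The members are ileal genes, and the position of the tissue along the gut matters to them. Of 6 other genes of the distal small intestine, 3 were lower in GRKO non-Paneth cells, namely Amn (log2 fold change -1.74, adjusted p = 0.000101, edgeR's quasi-likelihood test) and Cubn (-2.18, adjusted p = 0.0464), which together take up cobalamin bound to intrinsic factor, and Osr2 (-0.52, adjusted p = 0.0439). Among the genes that did not pass were Nts (-0.63) and Pyy (-0.19). Of all genes 19.8% were called lower in this comparison. With library totals only 1 of the 6 ileal genes passed, and by DESeq2 2. Of 6 proximal genes 0 passed by edgeR's or DESeq2's test and 2 at an unadjusted p below 0.05, with log2 fold changes from -2.27 to 0.18 and a median of -0.34, against -0.58 for the ileal list. Scaled by library totals only, 1 of the 6 proximal genes passed, higher. The proximal genes summed to 1880 to 2087 CPM in WT and 531 to 838 CPM in GRKO non-Paneth cells. The ileal genes summed to 489 to 803 and 207 to 322 CPM, so that both sums were lower in every GRKO library. Most of the proximal sum was Lct, at 1744 ± 95.5 CPM in WT and 440 ± 137 CPM in GRKO cells. In mean CPM Gata4 was higher in GRKO cells (147 and 202 CPM). Slc40a1 (34 ± 11 and 24.2 ± 5.76 CPM), Cybrd1 (0.86 ± 0.602 and 0.753 ± 0.166), Onecut2 (54.5 ± 18.2 and 56.2 ± 15.6) and Pdx1 (9.78 ± 2.79 and 10.6 ± 2.41) overlapped between the genotypes. After TMM scaling 5 of the 6 proximal genes had a log2 fold change below 0. The difference between the lists was not tested. The stretch of intestine that each library came from was not tested.

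The other genes of the pathway were taken as lists. The partners and co-regulators of FXR with the regional transcription factors of the gut formed the first, of 28 genes, all tested. In GRKO non-Paneth cells 5 were higher and 7 lower, with a median log2 fold change of 0.0577, against -1.96 for the members. Of all genes 37.3% passed in this comparison, 19.8% of them all lower, so that the list stood near that share. With library totals only it had 10 higher and 4 lower, with a median of 0.35. Lower were the oxysterol receptors Nr1h3 (-1.0, adjusted p = 0.000315) and Nr1h2 (-0.58, adjusted p = 0.0051), the xenobiotic and bile acid sensor Nr1i2 (-0.82, adjusted p = 0.000996), Hnf4g (-1.09, adjusted p = 0.0105) and Gata5 (-0.77, adjusted p = 0.000691), all by edgeR's quasi-likelihood test. Rxra, the main partner of FXR, was lower by -0.43 (adjusted p = 0.0416), as was the histone methyltransferase gene Kmt2d by -0.52 (adjusted p = 0.0493). The higher genes included Foxa2 (0.88), Cdx1 (0.62), Prmt1 (0.54) and Carm1 (0.41). Of the 14 alternative fits, Kmt2d and Carm1 passed in 8 and Rxra in 10, and Rxra, Kmt2d and Nr1h2 did not pass with library totals only. Hnf4a and Cdx2, transcription factors of the whole epithelium, did not pass, at 0.24 and 0.04.

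Transport and metabolism of bile acids and sterols formed a list of 25 genes, of which 16 were tested. In GRKO non-Paneth cells 11 were lower and 2 higher, with a median of -1.48, beside 19.8% of all genes lower and 37.3% in either direction. The sterol exporter pair Abcg5 and Abcg8 fell most clearly, from 272 ± 33.4 to 76.4 ± 9.94 CPM (log2 fold change -2.12, adjusted p = 7.92e-06) and from 235 ± 27.6 to 66.5 ± 8.97 CPM (-2.11, adjusted p = 3.1e-06). Abcc2, the apical carrier of conjugates, fell from 132 ± 18.3 to 41.3 ± 19.7 CPM (-1.96, adjusted p = 0.000384). Cyp27a1, the mitochondrial sterol 27-hydroxylase, fell from 42.4 ± 15.8 to 9.0 ± 3.51 CPM (-2.52, adjusted p = 0.000127). These 4 genes passed in each of the 14 alternative fits.

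Abcg2, Baat, Cyp3a11, Cyp3a13, Sult2b1, Ugt1a1 and Abcb1a were the other lower genes, between -2.41 and -0.71. Cyp3a11 passed in 8 of the 14 alternative fits. Higher were Abcc4 (1.28, adjusted p = 0.00113, edgeR's quasi-likelihood test), an exporter of conjugates and cyclic nucleotides, and the anion carrier Slco3a1 (0.98, adjusted p = 5.65e-05). The genes of hepatic uptake and synthesis Slc10a1, Slco1b2, Cyp7a1 and Cyp8b1 had 0 counts in all 12 libraries.

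The receiving side of FGF15 was also read in the gut. Klb, which encodes beta-Klotho, had 0.114 ± 0.146 CPM in WT non-Paneth and 4.54 ± 1.36 CPM in WT Paneth cells, a log2 fold change of 5.87 (adjusted p = 4.41e-07, edgeR's quasi-likelihood test). In GRKO cells it had 0.451 ± 0.0961 and 5.4 ± 1.92 CPM. Fgfr4, its receptor partner, had 11.1 ± 3.62 CPM in WT non-Paneth and 16.4 ± 8.68 CPM in WT Paneth cells (log2 fold change 1.24, adjusted p = 0.00334). The ranges of Fgfr4, 8.07 to 15.1 and 10.5 to 26.3 CPM, overlapped, and with library totals only its log2 fold change was 0.56 and the call was lost (adjusted p = 0.14, edgeR's quasi-likelihood test). Transcripts of both parts of the receptor were found in the Paneth sort, where Fgf15 had 20 counts in all 6 libraries. Markers of tuft and stem cells were higher in that sort too. Tuft cell markers summed to 131 to 331 CPM in WT Paneth cells, with 5 of 5 higher past the threshold than in WT non-Paneth cells, as were 5 of 5 stem cell markers. With library totals only 4 tuft and 3 stem cell markers passed. Enterocyte markers had 17 of 17 lower, goblet cell markers 3 of 6 lower and 1 higher, and enteroendocrine markers 3 of 5 lower and 0 higher. Of all genes 50.7% passed between these WT sorts, and 26.7% were lower in Paneth cells. The part of tuft and stem cells in the receptor values was not tested.

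Between genotypes neither receptor gene passed. In non-Paneth cells their log2 fold change was 1.58 (adjusted p = 0.0989) for Klb and 0.27 (adjusted p = 0.5) for Fgfr4. Malrd1, also called Diet1, which raises FGF15 output from enterocytes, fell from 171 ± 12.5 to 112 ± 6.73 CPM in GRKO non-Paneth cells (log2 fold change -0.90, adjusted p = 0.003). Ptpn11, a phosphatase downstream of the receptor, was higher by 0.45 (adjusted p = 0.0105). Of the 9 genes of this list 7 were tested, with 1 higher and 1 lower, beside 37.3% of all genes in either direction.

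Between the genotypes in Paneth cells 2 of the 51 tested genes of these lists passed, beside 3.22% of all genes, namely Ncoa1 (0.67, adjusted p = 0.0409) and Ptpn11 (0.53, adjusted p = 0.0448). Neither was called without GRKO Paneth replicate 2 or 3, or without WT Paneth replicate 1 or 2. The interaction passed for 12 of the 51, beside 18.7% of all genes, and for 10 of them the GRKO effect in Paneth cells lay above that in non-Paneth cells. It was largest for Abcc2, at 3.15 on the log2 scale (adjusted p = 0.00096, edgeR's quasi-likelihood test). Abcc2 had 8.36 to 8.68 CPM in the WT and 13.4 to 25.4 CPM in the GRKO Paneth libraries (log2 fold change 1.19, adjusted p = 0.0565), while it fell in non-Paneth cells. Abcg5 and Abcg8 fell by less in Paneth cells (-0.50 and -0.57, neither past the threshold), with interactions of 1.62 and 1.54.

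**Figure D4:**
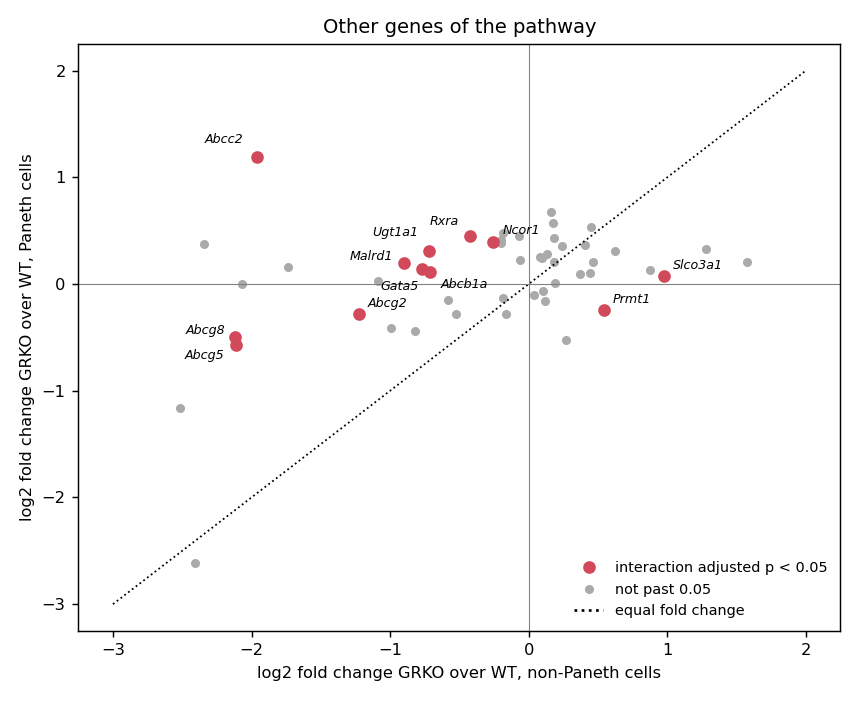
Log2 fold change of GRKO over WT in non-Paneth cells (x axis) and in Paneth cells (y axis) for the 51 tested genes of the 3 pathway lists, with red points where the interaction has an adjusted p below 0.05. The 12 red genes are named, Abcc2 lies farthest above the dotted line of equal fold change, and only Prmt1 and Slco3a1 among them lie below that line.

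Genes whose pattern was most like that of a member were sought by Pearson's correlation of log2 CPM over the 12 libraries, among 9651 genes of at least 10 CPM in a group. The libraries share sorts and genotypes, so that the values describe the pattern and carry no test. For Fgf15 the nearest were Zfp747 (r = 0.935), Trafd1 (0.925), Retreg3 (0.924), Snx20 (0.924) and Gal3st1 (0.921). None is a member, and among the members themselves r with Fgf15 was 0.651 to 0.795. Fabp6 was nearest to Nbl1 (0.968), Tmigd1 (0.965), Ocm (0.963), Slc51a (0.955) and Mgat4c (0.951). Slc10a2 was nearest to Nbl1 (0.959), Slc13a1 (0.951), Mgat4c (0.948), Fabp6 (0.939) and Tmigd1 (0.932), so that Nbl1, Tmigd1 and Mgat4c stood near both. Slc51a followed Ocm (0.993) and the brush border peptidase gene Enpep (0.992).

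After the group means were removed, the 6 non-Paneth libraries still showed Fabp6 with Slc51a (r = 0.901), Slc51b (0.852) and Nr1h4 (0.812), whereas Fgf15 had r between -0.318 and 0.408 with the other members. These values rest on 6 points and reflect what single libraries did. GRKO replicate 2 was the highest of its group for Nr1h4, Slc10a2, Fabp6, Slc51a and Slc51b but held the 1 count of Fgf15.

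Promoters of 6 of the 7 members (not Fgf15) were matched in a RefSeq table (250 bases before to 50 after the start, build GRCm38.p6). They were searched on both strands for motifs of the receptors named above. The FXR motif IR-1 is the half-site AGGTCA followed after 1 base by its reverse complement, DR-1 is the same half-site repeated after 1 base, and the glucocorticoid response element is the half-site AGNACA followed after 3 bases by its reverse complement. At most 2 mismatches were allowed, and an IR-1 and a DR-1 match can overlap, as they share the half-site. IR-1 was found in 1 of 6 members and in 1.14% of 32851 promoters, DR-1 in 1 of 6 and 3.86%, and the glucocorticoid response element in 0 of 6 and 14.7%. For each gene of binding and export a window that came nearest to the FXR motif is shown, as is the DR-1 match of Nr1h4. Matched bases are in capitals, on the strand of the gene.
Fabp6: gagcagagAGGTGAATGACCAcactctgt
Slc51a: accacgtgAGGACTTTGTCCTtctcttct
Slc51b: cattcgtgGGGTCATTCACCCtggactgg
Nr1h4: catccgtgTGGCATTTGACCTccagccag

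The Fabp6 window shown (chr11:43601764-43601792, GRCm38.p6) holds IR-1 with 2 mismatches, at bases -222 to -210 from the start. It is the first of 2 windows of this promoter that come equally near to IR-1, and the other is not shown. Those of Slc51a (chr16:32487938-32487966, bases -79 to -67) and Slc51b (chr9:65422940-65422968, bases -187 to -175) have 3 mismatches, a level that 11.4% of all promoters reach. The Nr1h4 window (chr10:89506859-89506887, bases -221 to -209) holds DR-1 on the opposite strand with 2 mismatches. A match is a description of letters in the window.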

How the data were processed

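Bulk RNA-seq of cells sorted from small-intestinal crypts was used, 12 libraries in all. The authors made stranded single-end libraries, trimmed with Trimmomatic 0.39 (per the labels), aligned with STAR 2.7.10a to mm39 and deposited raw counts of uniquely placed reads per gene, with no normalization and no pooling. Reads placed at several positions or over several genes are not in such counts, and which strand was counted was not stated. Genes were named and placed with GENCODE vM39 (54749 of 55414), whose release may differ from the authors' annotation.

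CPM were computed from all counts of a library. Fold changes, standard errors and adjusted p-values come from edgeR 4.0.16 in R 4.3.3 (filterByExpr, TMM, glmQLFit with robust estimates, glmQLFTest, Benjamini-Hochberg over 13057 genes, threshold 0.05), with all 12 libraries in 1 fit and 1 mean per group. The script was tested on simulated data. DESeq2 1.42.0, RLE factors, library totals, scaling without Lyz1 and the Defa genes, other filters, a fit on the groups compared, a replicate block and each library left out in turn were alternatives, and both Paneth libraries of replicate number 2 were left out as an alternative chosen after seeing the data.

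The members and gene lists were chosen with earlier results of these data known. All 7 members are named, list genes past the threshold are named first (some list genes are counted but not reported here singly), and for each member of at least 10 CPM in a group the 5 genes of highest correlation were sought. After group means were removed, both WT libraries that carry 1 number correlated at 0.35, 0.23 and 0.24. They were taken as pairs in the replicate block only, and the main fit, with its p-values, used no pairing. Whether each pair came from 1 mouse was not tested. In GRKO mice the values were 0.013, 0.26 and 0.47, and the block joined these libraries by number as well. No 2 libraries of a group agreed within sampling noise, as the chi-square per degree of freedom was at least 12.3. Promoter sequences are from RefSeq.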

Additional observations from a re-analysis of the deposited data

Results flagged for a closer look

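For 12 genes of the pathway lists, none of them among the 7 members, the GRKO effect differed between Paneth and non-Paneth cells by edgeR's test of the interaction (adjusted p below 0.05 over 13057 genes). They are 12 of 51 genes tested on these lists, beside 18.7% of all genes. The difference, Paneth minus non-Paneth on the log2 scale, was 3.15 for Abcc2, 1.62 for Abcg5, 1.54 for Abcg8, 0.94 for Abcg2, 1.03 for Ugt1a1 and 0.83 for Abcb1a among the genes of transport and metabolism that were lower in GRKO non-Paneth cells. It was -0.91 for Slco3a1, which was higher there. Among regulators it was 0.91 for Gata5, 0.88 for Rxra, 0.65 for Ncor1 and -0.79 for Prmt1, and for Malrd1 it was 1.10. The calls of Abcc2, Abcg2, Abcg5, Abcg8, Prmt1 and Slco3a1 were made in each of the 20 alternative fits. Abcb1a passed in 12, Ugt1a1 in 14, Rxra in 18, Ncor1 in 10, and Gata5 and Malrd1 in 19 of them, and with library totals only none of these 6 passed. Enterocyte markers moved with them, with an interaction median of 1.52 over 17 genes, of which 5 passed, and their part in these values was not tested.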

How the results depend on the processing

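The counts of genes called were within 1.5 times of the reported ones between the WT sorts and between the genotypes of the non-Paneth sort under every alternative. The genotype comparison in Paneth cells was not stable. Against 420 genes called (2 of the pathway lists), library totals only gave 2 (0), no filter 1780 (7), DESeq2 1421 (5), the fit on the groups compared 0 (0), and leaving out both Paneth libraries of number 2 gave 0 (0). At an unadjusted p below 0.05 by edgeR the last 2 fits had 2341 and 2306 genes. The replicate block, which there joins WT and GRKO libraries that share only a number, gave 977 genes and 3 pathway genes. Leaving out 1 library gave 0 to 1618 genes (0 to 8 pathway genes), lowest without GRKO Paneth replicate 2 and highest without GRKO Paneth replicate 1. In GRKO Paneth against GRKO non-Paneth cells library totals called 10784 genes (48 of the pathway) against 5117 (27). The interaction called 2446 genes and 1563 to 2607 with 1 library left out, lowest without WT non-Paneth replicate 2.

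Scaling by library totals shifted the median over all genes to 0.31 (log2) for the genotypes in non-Paneth cells, -0.684 and -1.05 for Paneth against non-Paneth cells of WT and GRKO mice, and -0.28 for the interaction. The split of calls then was 1097 higher and 7892 lower against 3133 and 3491 in WT mice, 816 and 9968 against 2344 and 2773 in GRKO mice, and 752 and 1836 against 1496 and 950 for the interaction. The 6 members kept a negative log2 fold change in non-Paneth cells under all 14 alternatives.

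Of the members' log2 fold changes over all comparisons and alternatives, 430 moved by less than the spread between replicates (1 SD) and 41 by more. Of their group levels 130 moved by less and 10 by more. Leaving out 1 of 3 libraries cannot shift a group mean by 1 SD, so for levels those alternatives could only count as unmoved. With the replicate block 6 of 6 members passed in WT Paneth against WT non-Paneth cells, 4 in GRKO against WT non-Paneth cells (Slc51a added) and 5 in GRKO Paneth against GRKO non-Paneth cells. The shares of all genes called with this block in these comparisons are not reported here. Between genotypes this block joined WT and GRKO libraries that share only a number and come from different mice. After group means were removed, such libraries correlated at -0.094, 0.17 and -0.085 in non-Paneth cells and at 0.098, 0.16 and -0.098 in Paneth cells. With at most 1 mismatch 0 of 6 members had an IR-1 or DR-1 match. With at most 3 there were 3 of 6 with IR-1, 2 with DR-1 and 4 with the glucocorticoid response element. Of all promoters 11.4%, 24.6% and 64.4% held these motifs with at most 3 mismatches. With 44 to 553 counts per WT non-Paneth library, and 20 counts over all Paneth libraries, depth limits what Fgf15 can show there.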
